A study of Homo sapiens with 27 samples.

Results

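The response of H358 cells, a human line of non-small cell lung cancer, to cisplatin was measured in 6 of the 27 libraries of the series, taken by their titles as 3 libraries of whole cells given cisplatin and 3 of whole cells given the vehicle, DMSO. Cisplatin was given at 100 µM, and DMSO was given in parallel. The time of exposure is not given in the sources used here, and no label says that the replicates were separate cultures, so that p-values measure the spread between these libraries, which may be technical. H358 is 1 established line, and its identity was not checked against marker genes, because no annotation of the genome build was used here. The rest of the series holds H358 cells given oxaliplatin, a related platinum compound, and material of the line A549 and of the resistant line A549R. These are cytosol of both lines and heavy polysomes of A549, with cisplatin or DMSO. The stated purpose of the series is to follow transcripts that end in introns, set against those that end in the last exon, during cisplatin response and resistance.

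An mRNA is cut and given a poly(A) tail at its 3′ end. Many genes hold several such sites, and use of one inside an intron yields a shortened transcript, whereas tandem sites in the last exon yield messages that differ in the length of the 3′ untranslated region. Cisplatin forms crosslinks in DNA, between bases of one strand above all, that block RNA polymerase and replication and activate the DNA damage response. In 3′-seq, reads are primed from the poly(A) tail, so that each pile of reads, a peak, marks an RNA 3′ end on 1 strand, or a run of A bases inside an RNA from which the primer also started. Mitochondrial transcripts carry short poly(A) tails as well and are captured with the nuclear ones.

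Each library came with its own list of peaks, and each peak with a whole-number read count. Peaks that overlapped on a strand were merged over the 6 lists into 121999 ends, of which 28021 were listed in all 6 libraries and were tested. Listed counts summed to between 3765404 and 6542394 per cisplatin library and between 5248796 and 9058438 per DMSO library, and the smallest listed count was 5, so that an end missing from a list is not an end with 0 reads. Levels below are in CPM, a library's counts in tested ends brought to the same total and scaled between libraries by TMM, and positions are those of hg19, the human build that the lists fit. CPM are shares of a library, so that a change in the amount of RNA per cell does not show in them. The median half-width of the 95% interval of a log2 change was 0.79, which sets the size of change that these 6 libraries resolve for a single end.

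The lists differed between treatments before any end was tested. Peaks under 100 bases wide made up 55.8%, 62.7% and 54.8% of the peaks listed with cisplatin, against 51.0%, 51.4% and 48.0% with DMSO. All 3 cisplatin libraries lay above all 3 DMSO libraries (exact permutation test, two-sided, p = 0.1, also after adjustment over 6 such shares, and the smallest that 3 against 3 allow). Cisplatin replicate 2 stood highest, and several counts below are given without it. Peaks are numbered within a list with gaps, and the 9 lists of H358 oxaliplatin and A549 cytosol libraries kept 31.6% to 42.3% of their peak numbers, against 73.1% to 79.4% in the H358 cisplatin and DMSO lists. These 9, called short lists for that reason, are used to sort the tested ends into classes. Ends that at least 1 short list also held, 15642 of them, are called shared ends, and the 12379 that none of them held are called long-list ends. The long-list ends were narrower, with a median width of 54.5 bases (interquartile range 47.5 to 62), and weaker, with a median of 4.05 CPM. Shared ends had a median width of 226 bases (150 to 342.5) and a median of 9.0 CPM. Of the long-list ends 7863 lay on the plus strand and 4516 on the minus strand, whereas shared ends were spread over 8013 plus and 7629 minus positions.

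Cisplatin changed a large part of the 3′ ends of H358 cells. Of the 28021 ends, 5119 (18.3%) were higher and 5027 (17.9%) lower than with DMSO at an adjusted p of 0.05 (edgeR's quasi-likelihood test with Benjamini-Hochberg adjustment), 36.2% in all. Changes of more than 4-fold were called at 466 ends that rose and 531 that fell, and changes of more than 16-fold at 25 and 4. The 3 cisplatin values lay outside the 3 DMSO values at 47.1% of the ends, above them at 6823 and below them at 6361. Without cisplatin replicate 2 the number of called ends was 5910, 2574 higher and 3336 lower.

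The direction of the change went with the class of the end. Among shared ends 937 rose (5.99%) and 4800 fell (30.7%), with a median log2 change of -0.47, while among long-list ends 4182 rose (33.8%) and 227 fell (1.83%), with a median of 0.71. Long-list ends took 23.9%, 30.1% and 26.1% of the tested counts in the cisplatin libraries and 16.6%, 16.7% and 18.7% in the DMSO libraries, so that no library of one treatment reached the range of the other (1.54-fold, exact permutation p = 0.1, adjusted over 6 shares 0.1). Because CPM add up to a fixed total, this share sets where 0 lies for all other ends. When libraries were scaled on shared ends, the median log2 change of all ends was 0.57 in place of 0.08, and 10000 ends were higher (35.7%) and 2176 lower (7.77%). Shared ends fitted alone split evenly, with 1947 higher (12.4%) and 1954 lower (12.5%). The balance of rises and falls over all ends thus depends on the scale. It depends on the filter as well, with 3570 higher and 4871 lower among ends listed in at least 3 of the 6 libraries. With no filter 4292 were higher and 8503 lower. Not tested were 6853 ends listed in all 3 DMSO but only 2 cisplatin libraries, against 3013 the other way round. Each single end named below among the largest rises and falls kept its direction and its call on every scale tried.

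**Figure D1:**
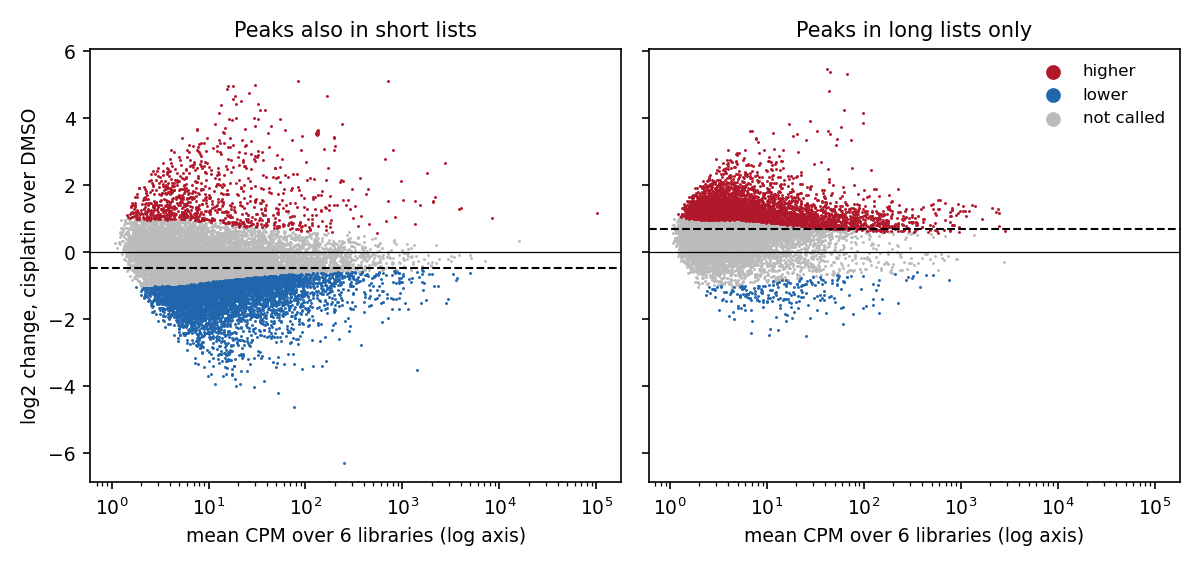
Log2 change (cisplatin over DMSO) of each tested end against its mean CPM over the 6 libraries (log axis), for the 15642 shared ends (left) and the 12379 long-list ends (right); red points rose, blue points fell, grey points were not called. Dashed lines mark the medians, -0.47 for shared and 0.71 for long-list ends.

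Width followed the same division within each class. Among shared ends of up to 60 bases, 132 of 532 rose and 32 fell, with a median log2 change of 0.33, whereas among those over 400 bases 123 of 2860 rose and 1173 fell, with a median of -0.57. Long-list ends behaved alike, with 2641 of 8793 rising and 39 falling at up to 60 bases, and 46 rising against 50 falling among the 239 ends over 200 and up to 400 bases. The same division was seen among abundant ends. Of 4 equal groups by mean level, the highest began at 16.5 CPM, and there 26 of 52 shared ends of up to 60 bases rose and 3 fell, while 908 of 2110 shared ends over 400 bases fell and 103 rose. With shared ends fitted alone the narrowest still stood apart, as 203 of 532 ends of up to 60 bases rose and 10 fell, with a median log2 change of 0.80, against a median of -0.09 for those over 400 bases. Narrow peaks were also a larger share of the cisplatin lists, as given above, and the part of that in these counts was not tested. What the narrow peaks are, true 3′ ends or internal runs of A, cannot be told from the lists.

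**Figure D2:**
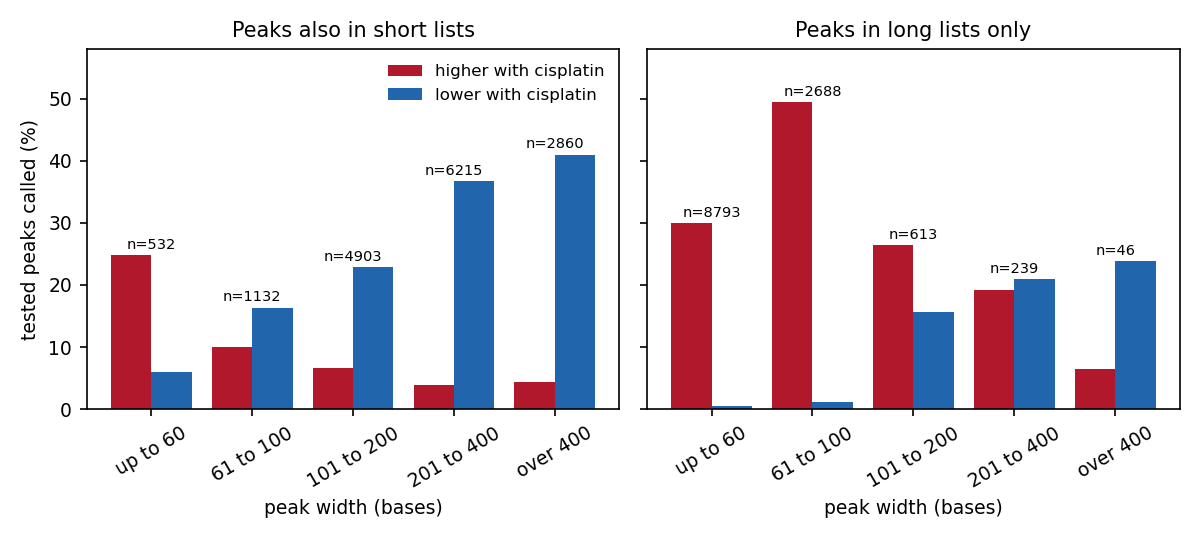
Percentage of tested ends called higher (red) or lower (blue) with cisplatin, by width of the peak in bases, for shared ends (left) and long-list ends (right); n is the number of ends in each bin. Lower calls dominate from 61 bases up among shared ends, and higher calls up to 200 bases among long-list ends.

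Named here are the 12 largest rises and the 12 largest falls among called ends with a mean count of at least 20 whose 3 values per treatment did not overlap. All 24 kept their direction and their call in 404 of 404 combinations of an end with an alternative setting. They were chosen as the largest changes, so that this is a weak check. The end with the largest rise lay on chromosome X, 56756663 to 56757055, plus strand. It had 78.0, 97.1 and 68.9 CPM with cisplatin and 2.23, 1.35 and 1.84 CPM with DMSO, a log2 change of 5.48 ± 0.37 (SE; edgeR adjusted p 1.64e-18). Its cisplatin values lay far above every DMSO value, and the nearest tested end on its strand, 86704 bases away, moved the other way (log2 change -1.52).

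On chromosome 6, 27441149 to 27441572, plus strand, the values were 77.8, 100.4 and 80.6 CPM with cisplatin and 2.36, 1.59 and 2.25 CPM with DMSO (log2 change 5.38 ± 0.36). On chromosome 12, 96001731 to 96002182, minus strand, they were 107.9, 145.7 and 137.5 CPM with cisplatin and 3.47, 2.33 and 4.10 CPM with DMSO (5.32 ± 0.34). Both ends were wide long-list ends (median widths of 308.5 and 332 bases), unlike the narrow majority of that class. The most abundant of the 12 lay on chromosome 1, 155277610 to 155278203, minus strand, with 1313, 1636 and 1239 CPM under cisplatin and 42.5, 38.2 and 40.3 CPM under DMSO (5.11 ± 0.27). Its replicates agreed closely, with an SD of 211 around 1396 CPM in cisplatin and of 2.15 around 40.4 CPM in DMSO libraries (n = 3 each). The nearest tested ends on either strand fell, by 1.24 on its own strand at 44500 bases and by 0.88 on the other at 11987 bases, both on the log2 scale.

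Narrow ends were also found among the largest rises. On chromosome 1, 43764278 to 43764342, minus strand, a peak with a median width of 52.5 bases had 26.3, 32.8 and 34.2 CPM with cisplatin and 1.12, 0.61 and 1.23 CPM with DMSO (log2 change 4.98 ± 0.43). On chromosome 6, 135930897 to 135930958, minus strand, a peak of 57.5 bases had 23.5, 28.4 and 38.3 CPM with cisplatin and 1.12, 0.86 and 1.02 CPM with DMSO (4.88 ± 0.43). DMSO counts here were close to the smallest count that a list holds, so that the folds rest on few reads on that side. On chromosome 6, 115579467 to 115579544, minus strand, DMSO replicate 3, at 4.10 CPM, lay above the other DMSO values, 0.99 and 0.98 CPM, and all lay below the cisplatin values of 36.5, 48.0 and 66.0 CPM. The log2 change there was 4.75 ± 0.42, and 5.63 without DMSO replicate 3. The 5 others lay on chromosome 20 at 26189768 (minus strand, 5.11), chromosome 11 at 68227447 (minus, 5.01), chromosome X at 140212206 (minus, 4.96), chromosome 16 at 79674139 (plus, 4.82) and chromosome 19 at 7563981 (plus, 4.68), given by the start of the peak and its log2 change, with adjusted p between 1.64e-18 and 6.53e-14 by edgeR. Beside some of the 12 rises the nearest tested end on the strand was called higher as well. Its log2 change was 1.11 beside chromosome 6, 27441149, and 2.54 beside chromosome 6, 115579467. It was 3.19 beside the chromosome 20 end and 0.84 beside the chromosome 16 end. Called lower were the nearest ends beside chromosome X, 140212206 (-1.18), and beside the chromosome 19 end (-1.45).

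The deepest fall was at chromosome 6, 43966601 to 43967301, plus strand. It had 9.03, 6.55 and 2.92 CPM with cisplatin and 608.8, 533.9 and 354.1 CPM with DMSO, a log2 change of -6.28 ± 0.34 (edgeR adjusted p 5.54e-23). The nearest tested end on the strand, 94103 bases away, rose (log2 change 1.82). On chromosome 15, 64885061 to 64885610, plus strand, the values were 5.75, 5.73 and 6.42 CPM with cisplatin and 180.6, 7.23 and 250.5 CPM with DMSO (-4.61 ± 0.50). DMSO replicate 2 lay just above the cisplatin libraries there, and without DMSO replicate 3 the log2 change was -3.98.

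The other large falls took ends of moderate level down to a few CPM. Only ends listed in all 6 libraries were tested, so that no count here could lie below the smallest listed count of 5. The lowest cisplatin values rest on few reads, and the folds there are bounded by that floor. On chromosome 16, 81744674 to 81745370, plus strand, the values were 5.91, 5.46 and 4.38 CPM with cisplatin and 145.7, 75.4 and 74.6 CPM with DMSO (log2 change -4.21 ± 0.34). On chromosome 8, 118811599 to 118812143, minus strand, they were 4.60, 3.00 and 2.04 CPM with cisplatin and 67.7, 50.5 and 46.9 CPM with DMSO (-4.03 ± 0.36). On chromosome 5, 1038367 to 1038802, plus strand, they were 2.63, 1.64 and 2.34 CPM with cisplatin and 40.9, 28.1 and 38.5 CPM with DMSO (-3.98 ± 0.39). All of these were shared ends, and no value of one treatment came near the range of the other. On chromosome 8, 23154686 to 23155233, minus strand, the 3 cisplatin libraries had 6.08, 3.27 and 4.67 CPM and the 3 DMSO libraries 98.1, 49.0 and 61.04 CPM (-3.86 ± 0.35). The 6 others had log2 changes of -3.93 to -3.67. They started at 18743996 on chromosome 20 (plus strand), 67425142 on chromosome 3 (minus), 49133812 on chromosome 19 (minus), 126755860 on chromosome 3 (plus), 99879264 on chromosome 3 (plus) and 159399624 on chromosome 5 (plus), with adjusted p between 2.08e-12 and 2.44e-09 by edgeR. Of the 12 falls 12 were shared ends, against 8 of the 12 rises. Over all tested ends, 4800 of the 5027 falls and 937 of the 5119 rises were shared ends. In 3 cases the nearest tested end on the strand was called lower as well. The end 1362 bases from the chromosome 3 end at 126755860 fell by 2.55 on the log2 scale, the one 17795 bases from the end at 99879264 fell by 2.97, and the one 37527 bases from the chromosome 5 end at 159399624 fell by 0.88. In other cases the nearest end was called higher. It rose by 1.82 beside the chromosome 6 end, by 1.07 beside the chromosome 15 end and by 1.37 beside the chromosome 8 end at 23154686. Of all tested ends 17.9% were lower and 18.3% higher.

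**Figure D3:**
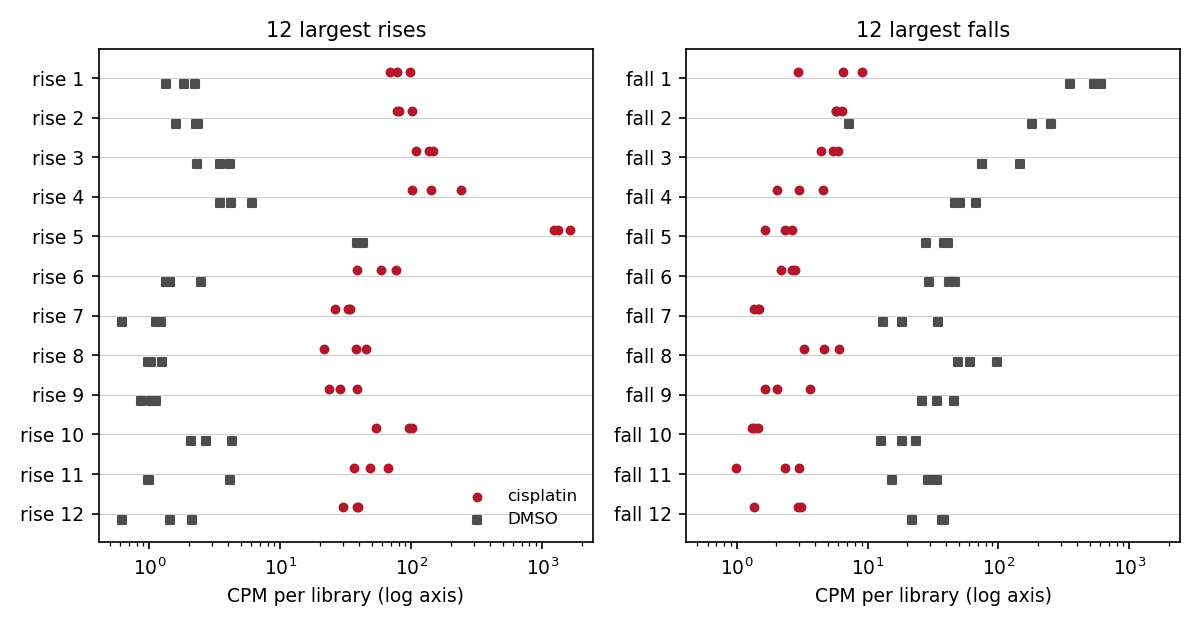
CPM (log axis) of each library at the 12 ends with the largest rises (left) and the 12 with the largest falls (right), ordered from the largest down; red circles are the 3 cisplatin libraries and grey squares the 3 DMSO libraries. The treatments do not overlap at any end, and at fall 2 a single DMSO value, 7.23 CPM, lies beside the cisplatin values.

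Mitochondrial RNA took a larger share of the reads after cisplatin. It made up 16.2%, 15.7% and 14.4% of all counts in the cisplatin libraries and 7.68%, 7.29% and 7.41% in the DMSO libraries, means of 15.4 ± 0.94% and 7.46 ± 0.20% (SD, n = 3 each). The 3 cisplatin libraries thus lay above the 3 DMSO libraries, 2.07-fold on average, with an exact two-sided permutation p of 0.1, the smallest possible here, and 0.1 after adjustment over 6 shares. Most of it was the plus-strand end, which spans the mitochondrial genome from 1 to 16571 as a single merged peak, so that no mitochondrial gene is told apart. That end rose to 140976, 150191 and 134636 CPM with cisplatin, against 69186, 57591 and 60007 CPM with DMSO (log2 change 1.19 ± 0.17, edgeR adjusted p 2.09e-07). On the minus strand the end from 1666 to 16571 also rose, with 15642, 10727 and 7833 CPM under cisplatin and 5796, 6090 and 4859 CPM under DMSO (1.03 ± 0.21). It missed the threshold when ends listed in at least 3 of the 6 libraries were tested (1.04, edgeR adjusted p 0.0549). A weak minus-strand end from 508 to 1602 rose as well, with 20.2, 11.5 and 10.5 CPM with cisplatin and 6.20, 5.51 and 4.30 CPM with DMSO (1.40 ± 0.37). At the minus-strand end from 1 to 488 the treatments overlapped, with 17198, 20438 and 15532 CPM against 10301, 17258 and 14762 CPM in the DMSO libraries (0.33 ± 0.20, edgeR adjusted p 0.177; 0.0276 with shared ends fitted alone). A greater mitochondrial share and a smaller amount of nuclear polyadenylated RNA cannot be told apart in these counts. With mitochondrial ends left out before scaling, 4923 ends rose and 5189 fell.

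Of the 7 most abundant nuclear ends, 2 rose, 1 fell and 4 did not pass the test. On chromosome 19, 49540208 to 49540414, plus strand, the values were 4530, 5182 and 7614 CPM with cisplatin and 1179, 2453 and 3358 CPM with DMSO (log2 change 1.31 ± 0.24, edgeR adjusted p 2.15e-05). With ends listed in at least 3 of the 6 libraries it missed the threshold (1.29, edgeR adjusted p 0.0611). On chromosome 2, 47562431 to 47562772, plus strand, they were 4208, 5135 and 6924 CPM with cisplatin and 1680, 2282 and 2625 CPM with DMSO (1.30 ± 0.22, edgeR adjusted p 3.73e-06). In both, every cisplatin value lay above every DMSO value. The end on chromosome 8, 146014805 to 146015355, minus strand, had 3667, 4024 and 4196 CPM with cisplatin and 6166, 5622 and 6438 CPM with DMSO (-0.62 ± 0.20, edgeR adjusted p 0.0128). Its call depended on the scale, at -0.11 with an edgeR adjusted p of 0.79 when shared ends were fitted alone. The other 4, on chromosomes 1, 21, 15 and 9, had log2 changes of -0.25, -0.16, -0.08 and -0.07, none of which passed the test, and all 4 were positive on the scale of shared ends (0.27 to 0.46, none called).

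Ends were next compared with their neighbours, since a shift between sites of a gene moves one end against another whatever the library's scale. Without an annotation, each tested end was paired with the nearest stronger tested end up to 50 kb further downstream. The fit held library terms, so that it reads the ratio of the ends alone. A pair can join ends of different genes. Of 7908 such pairs, the weaker upstream end gained on the downstream end in 746 (9.43%) and lost in 547 (6.92%) at an adjusted p of 0.05 by edgeR's quasi-likelihood test. Where it gained, the upstream end itself rose in 359 pairs, the downstream end itself fell in 470, and both happened in 158. Where it lost, the upstream end fell in 330, the downstream end rose in 256, and both happened in 82. Unlike the ratio, these calls of single ends depend on the scale, as given above. Which end of a pair moved is therefore read on the main scale only, here and for the pairs below. In the mirror set of 6417 pairs with the weaker end downstream, 858 gained (13.4%) and 502 lost (7.82%), so that gains of the weaker end outnumbered losses on both sides.

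The class of the ends went with these counts. Of 1037 upstream pairs that set a long-list end against a shared end, counted from the whole fit, 371 gained and 24 lost. Of the 520 that set a shared end against a long-list end, 13 gained and 161 lost. With both ends shared and fitted alone, 299 of 5571 pairs gained (5.37%) and 287 lost (5.15%), and in the mirror set of 4189 pairs 421 gained (10.1%) and 293 lost (6.99%).

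Distance between the ends separated near pairs from far ones. In the nearest of 4 equal groups, 134 to 1757 bases apart, the upstream end gained in 65 of 1977 pairs (3.29%) and lost in 18 (0.91%), with a median change of the log2 ratio of 0.06. In the farthest, 23543 to 49991 bases apart, it gained in 314 (15.9%) and lost in 238 (12.0%), with the same median of 0.06. Among shared ends alone the nearest group, 134 to 1267 bases, held 25 gains and 9 losses of 1394, and the next, up to 4647 bases, 58 gains and 27 losses of 1392. The order turned beyond, with 72 gains and 91 losses, then 144 gains and 160 losses in the farthest group, at a median of -0.07. In the nearest mirror pairs of shared ends, 126 to 1287 bases apart, the downstream end gained in 29 and lost in 30 of 1048. In the next mirror group of shared ends, up to 6873 bases, it gained in 79 and lost in 54 of 1047. Over all mirror pairs the nearest group, 126 to 2172 bases apart, held 71 gains and 59 losses of the downstream end among 1606. The ratio of gains to losses was thus highest in the nearest pairs with the weaker end upstream, where calls were few and the median small. In number, gains exceeded losses by more in the farthest upstream group given above. The same held for the farthest group of all mirror pairs, 28207 to 49967 bases apart, with 305 gains and 165 losses among 1604. No test was made across pairs, which share libraries and ends.

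**Figure D4:**
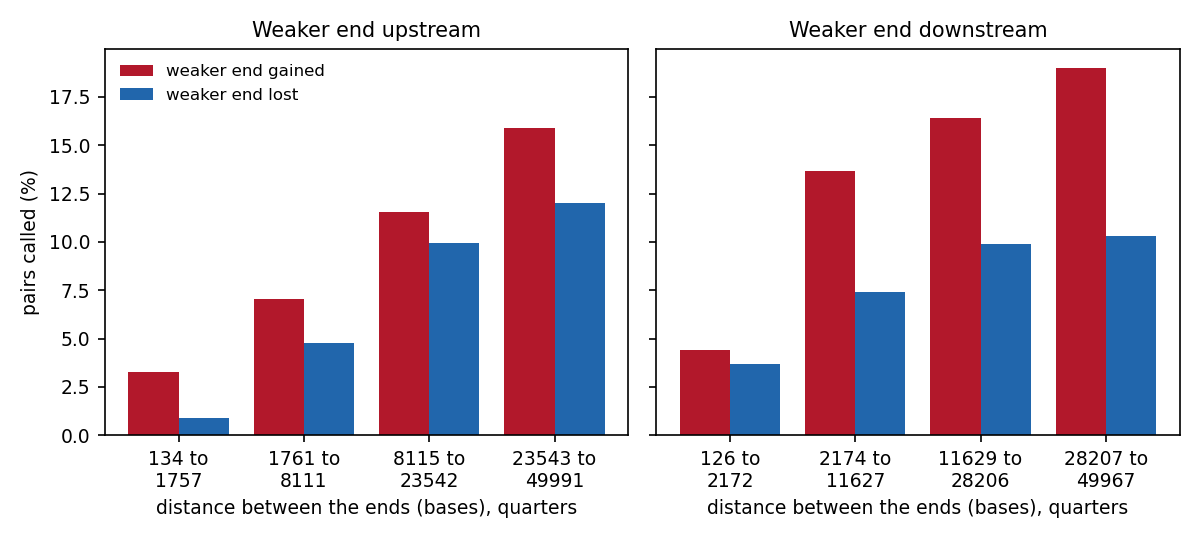
Percentage of neighbouring pairs in which the weaker end gained (red) or lost (blue) against the stronger end with cisplatin, in 4 equal groups of the distance between the ends in bases, with the weaker end upstream (left, 7908 pairs) or downstream (right, 6417 pairs). Calls increase with distance on both sides, and in the nearest upstream group 3.29% gained and 0.91% lost.

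The pair with the largest gain lay on chromosome 19, plus strand, where the end at 7563981 to 7564043 took 67.9%, 78.0% and 73.2% of the reads of the pair with cisplatin and 5.88%, 2.02% and 3.10% with DMSO, against the end 21881 bases downstream at 7585601 to 7585924. The log2 ratio changed by 6.11 ± 0.40 (edgeR adjusted p 3.24e-06), with the upstream end up by 4.68 and the downstream end down by 1.45. On chromosome 1, minus strand, the end at 36850012 to 36850264 took 58.6%, 85.3% and 76.3% with cisplatin and 4.74%, 5.18% and 6.77% with DMSO, against an end 44792 bases downstream (5.52 ± 0.48). Without cisplatin replicate 1 that change was 6.21. Both ends of these pairs moved, in opposite directions, and the libraries of the treatments did not overlap.

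A nearer pair lay on chromosome 17, minus strand, at 79892806 to 79894400, where the upstream end took 32.5%, 44.2% and 37.4% with cisplatin and 1.14%, 2.31% and 2.99% with DMSO, 2549 bases from its partner (4.87 ± 0.36). There the upstream end rose by 4.26 on the log2 scale, and its partner, with a log2 change of -0.60, did not pass the test (edgeR adjusted p 0.0544). On chromosome 8, plus strand, the end at 32869400 to 32869709 took 86.0%, 74.8% and 59.0% with cisplatin and 13.5%, 8.82% and 5.81% with DMSO, 32665 bases from its partner (4.85 ± 0.50). The other 4 of the 8 largest gains ran from 4.85 to 5.26 and lay on chromosomes 9, 19, 17 and 2.

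In several of the largest losses of an upstream end the downstream end rose. On chromosome 14, plus strand, the end at 73425921 to 73426367 took 9.68%, 8.27% and 6.90% with cisplatin and 64.3%, 75.9% and 78.8% with DMSO, 4033 bases upstream of an end that itself rose by 3.99 (change of the log2 ratio -4.83 ± 0.41). A further plus-strand pair on chromosome 14, 5281 bases apart, started at 35010663 and had upstream shares of 17.2%, 7.77% and 9.05% with cisplatin and 62.5%, 67.6% and 75% with DMSO (-4.06 ± 0.41). In neither did the upstream end's own log2 change, -0.85 in the first and -0.96 in the second, pass the test (edgeR adjusted p 0.0907 and 0.0571). On chromosome 12, minus strand, the end at 96035987 to 96036048 lost share to the end at 96001731 named above, with 3.24%, 2.55% and 3.68% under cisplatin and 42.9%, 51.3% and 44.4% under DMSO (-4.71 ± 0.36). One of the 8 was uneven, the pair on chromosome 19 starting at 14582384, with upstream shares of 11.5%, 13.2% and 11.8% with cisplatin and 96.5%, 94.6% and 29.0% with DMSO. Its change was -5.22 ± 1.17, and it was -7.30, -4.09 and -3.86 without DMSO replicates 3, 2 and 1 in turn.

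A total of 3 stretches chosen after their values were seen show the change at neighbouring ends together.

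**Figure D5:**
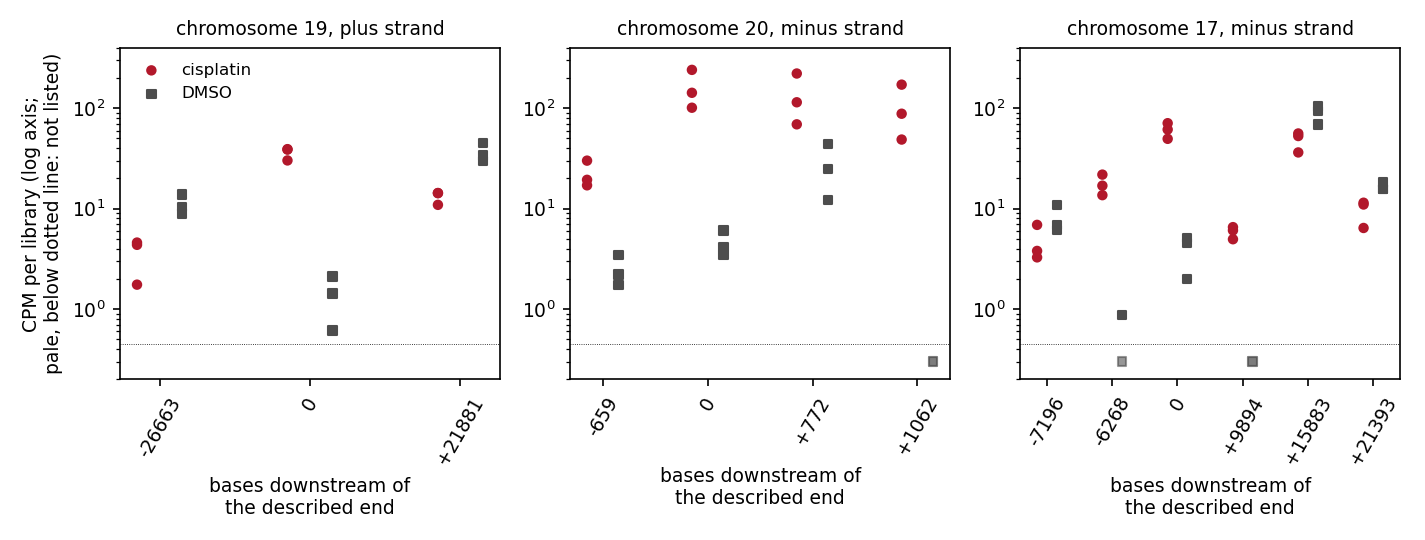
CPM (log axis) of each library at neighbouring ends of 3 stretches, ordered along the strand and labelled by distance in bases downstream of the end described in the text; red circles are cisplatin and grey squares DMSO libraries, and pale marks below the dotted line stand for ends not listed. On chromosome 19 the middle end is higher with cisplatin while both flanking ends are lower, on chromosome 20 all listed values of the 4 ends are higher, and on chromosome 17 a run of 3 ends that are higher or listed with cisplatin alone is flanked by ends with lower means.

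On chromosome 19, plus strand, the end at 7563981 had 30.2, 38.7 and 39.1 CPM with cisplatin and 2.11, 0.61 and 1.43 CPM with DMSO. The end 26663 bases upstream had 4.60, 4.37 and 1.75 CPM with cisplatin and 13.9, 8.95 and 10.4 CPM with DMSO (log2 change -1.59 ± 0.40), and the end downstream had 14.3, 10.9 and 14.3 CPM with cisplatin and 33.7, 29.7 and 44.9 CPM with DMSO (-1.45 ± 0.32). The middle end thus turned from the lowest to the highest of the 3 in CPM. The largest gain and the largest loss among upstream ends, which was -6.31 ± 0.46 at 7537102 to 7537380, both turn on it. It is a narrow end, with a median width of 58.5 bases. Its DMSO counts were 17, 5 and 7, close to the smallest listed count of 5.

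On chromosome 20, minus strand, 4 ends lay between 26188706 and 26190515. The end at 26189768 had 101.1, 142.4 and 240.9 CPM with cisplatin and 6.08, 4.17 and 3.48 CPM with DMSO. The end 772 bases downstream had 69.1, 114.6 and 221.6 CPM with cisplatin and 12.2, 24.999 and 43.8 CPM with DMSO (log2 change 2.33 ± 0.33), and the one 659 bases upstream 17.1, 19.4 and 30.1 CPM with cisplatin and 1.74, 2.21 and 3.48 CPM with DMSO (3.19 ± 0.40). The most downstream end had 297, 323 and 588 reads in the cisplatin libraries and was listed in no DMSO library. All 4 rose or were listed with cisplatin alone, by different amounts. The end at 26189768 had more CPM than the one 772 bases downstream in every cisplatin library and fewer in every DMSO library.

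On chromosome 17, minus strand, the end at 8123926 to 8124264 rose to 49.6, 61.4 and 71.0 CPM with cisplatin, against 1.98, 4.53 and 5.12 CPM with DMSO (log2 change 3.98 ± 0.36). The end 15883 bases downstream had 52.9, 36.3 and 56.1 CPM with cisplatin and 93.4, 69.0 and 104.3 CPM with DMSO (-0.87 ± 0.27, edgeR adjusted p 0.0106). The end 7196 bases upstream, at 6.90, 3.27 and 3.796 CPM with cisplatin and 10.9, 6.86 and 6.14 CPM with DMSO, did not pass the test (-0.74 ± 0.40).

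Ends listed on one side alone complete the picture of gains and losses. In all 3 cisplatin lists and no DMSO list stood 1701 ends, with a median summed count of 30 and a median width of 58 bases, and in all 3 DMSO lists and no cisplatin list 4590, with a median summed count of 33 and a median width of 133 bases. The cisplatin libraries held fewer reads, and an end can drop out of a list by falling under the smallest count, so that the numbers of the sides do not compare. Where a number is skipped at the place of an end, a peak may have been called there and left out. No number was skipped in any list of the other side for 545 of the cisplatin ends and 1707 of the DMSO ends, of which 45 and 73 had a summed count of at least 100.

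Beside the chromosome 20 end above, the strongest such cisplatin ends were at chromosome 21, 38638150 to 38638528, minus strand, with 180, 152 and 141 reads in the cisplatin libraries, and at chromosome 12, 6254063 to 6254171, plus strand, with 165, 125 and 102 reads. No H358 DMSO or oxaliplatin list held either. The strongest DMSO ends of this kind were at chromosome 17, 77913812 to 77914584, minus strand, with 179, 106 and 60 reads in the DMSO libraries, and chromosome 22, 47569427 to 47569737, plus strand, with 132, 112 and 69 reads. Oxaliplatin lists did hold both, with 32, 14 and 38 reads at the first and 25, 7 and 14 at the second. By summed count alone the strongest one-sided ends were at chromosome 9, 33076860 to 33077613, plus strand, with 2949, 2257 and 1883 reads in cisplatin lists, and chromosome 1, 564462 to 565450, plus strand, with 50278, 41370 and 39655 reads in DMSO lists. Both had skipped numbers at their place in all 3 lists of the other treatment, so that whether reads were absent there is not known.

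The cisplatin response of H358 whole cells was set against that of A549R cytosol over the 23503 ends listed in all 12 libraries, the other pair of groups whose 6 lists were all of the long kind. A549R libraries came from the same dose of cisplatin and from DMSO. A549R is the resistant line, and line, resistance and cell fraction cannot be told apart. In the joint fit 4538 ends rose (19.3%) and 5062 fell (21.5%) in H358, whereas 198 rose (0.842%) and 150 fell (0.638%) in A549R cytosol. The difference of the responses itself passed the test at 4695 ends (20%), higher in H358 at 2269 (9.65%) and lower at 2426 (10.3%; edgeR's quasi-likelihood interaction test with Benjamini-Hochberg adjustment). It passed at 803 of 12190 shared ends fitted alone, and at 2171 of all ends without H358 cisplatin replicate 2, 3085 without H358 DMSO replicate 2 and 2962 without A549R cisplatin replicate 1. The division between classes was seen in H358 cells. Long-list ends had a median log2 change of 0.64 in H358 and -0.12 in A549R, and shared ends one of -0.59 in H358 and 0.05 in A549R. Of the 150 ends that fell in A549R, 117 (78%) also fell in H358, which is 2.31% of the H358 falls, and 13 rose. Of the 198 that rose in A549R, 27 (13.6%) also rose in H358, 0.595% of the H358 rises, and 47 fell. Most of these ends were of 1 class, as 133 of the A549R falls and 194 of the A549R rises were shared ends. In the fit of the 6 H358 libraries, 5.99% of shared ends rose and 30.7% fell.

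Mitochondrial shares of all listed counts in the other groups rest on unlike lists, short for oxaliplatin and A549 cytosol, so that they do not compare directly. Oxaliplatin-treated H358 cells had 11.2 ± 1.39% (SD, n = 3), between the cisplatin and the DMSO libraries of that line. Over the ends listed in all 9 H358 libraries, the mitochondrial plus-strand end averaged 83011 CPM with oxaliplatin, 75857 CPM with DMSO and 243466 CPM with cisplatin. Its log2 change with oxaliplatin was 0.13 ± 0.26 (edgeR adjusted p 0.818). A549R cytosol had 7.94 ± 1.74% with cisplatin and 6.16 ± 0.92% with DMSO, and A549 cytosol 13.7 ± 2.49% with cisplatin and 11.6 ± 3.17% with DMSO.

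Oxaliplatin was given at the same dose and its libraries share the DMSO controls, so that its values are set beside those of cisplatin as a description. Over the 14604 ends listed in all 9 H358 libraries, 1717 rose (11.8%) and 2048 fell (14%) with cisplatin, and 185 rose (1.27%) and 569 fell (3.9%) with oxaliplatin, each against DMSO by edgeR. The chromosome 1 end at 155277610, scaled over these 9 libraries, averaged 2415 CPM with cisplatin, 80.9 CPM with oxaliplatin and 49.2 CPM with DMSO. The chromosome 6 end at 43966601 averaged 10.5 CPM with cisplatin, 5.96 CPM with oxaliplatin and 604.9 CPM with DMSO, and the chromosome 5 end at 1038367 averaged 3.68, 3.12 and 43.8 CPM in that order. These falls were as deep with oxaliplatin (log2 changes of -6.68 ± 0.39 and -3.77 ± 0.35). The other named falls listed in all 9 libraries were smaller with oxaliplatin than with cisplatin, with log2 changes of -2.61 to -0.05. At the chromosome 5 end at 159399624, by contrast, oxaliplatin libraries averaged 38.3 CPM, beside 4.07 CPM with cisplatin and 39.9 CPM with DMSO.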

How the data were processed

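Fragments of polyadenylated RNA were copied from an anchored oligo-dT primer, amplified by PCR and sequenced single-end, per the labels' protocols. Tools in the submitters' processing notes are bedtools 2.17.0, Bowtie2 2.2.5 and SAMtools 1.1, with no step given for any of them. How peaks were called, numbered and filtered is not given in the sources used here. For each library the authors deposited 1 peak list with a raw read count per peak, without normalization. A mouse build, mm9, is named in the notes. Positions reach 249237866 on chromosome 1, 51237635 on chromosome 22 and 16571 on chromosome M, however, and were read as human hg19. Without an annotation of that build, the planned test per gene, the gene lists and the marker genes were not used.

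Peaks overlapping by 1 base on a strand were merged over the 6 lists, counts summed per library, and ends listed in all 6 tested with edgeR 4.0.16 (TMM, quasi-likelihood test, R 4.3.3, treatment as the only term, Benjamini-Hochberg over all tested ends, threshold 0.05). Pairs were fitted in edgeR with a term per library and the interaction of end and treatment. The response difference to A549R was the interaction in a fit of 12 libraries. Shares were tested by exact permutation over libraries (scipy 1.17.1). Named are the 12 largest rises and falls (groups not overlapping, mean count at least 20), the 10 ends of highest mean CPM, the 8 largest gains and losses among pairs, and the strongest one-sided ends; of the last, those with no skipped number were chosen after the values were seen. Alternatives were other scalings, DESeq2 1.42.0, filters, merging within 50 bases, windows of 20 kb, a replicate block and each library left out. The members, lists and tests were chosen with earlier results of these data known; the classes of shared and long-list ends and the fits on them, the one-sided alternatives and the A549R comparison were added after seeing the data. Replicates differed beyond sampling noise (chi-square per degree of freedom of 7.14 to 13.1), and PCR reads without molecular identifiers are not independent molecules. All steps were tested on simulated data. The 6 polysome libraries were not used.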

Additional observations from a re-analysis of the deposited data

Results flagged for a closer look

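A test of the difference between the cisplatin responses of H358 whole cells and A549R cytosol passed at 4695 of 23503 ends (edgeR's quasi-likelihood interaction test, adjusted p of 0.05). It also passed at 13 of the ends named in the report, given here as the log2 response in H358 minus that in A549R. Most of them were named for the size of their change in H358, and that choice favours a difference. Their number is therefore no result about these ends. Line, the resistance of A549R and fraction cannot be told apart in any of them.

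The largest differences were at 2 ends that rose in H358. At chromosome X, 56756663, the difference was 5.88 ± 0.45 (edgeR adjusted p 2.18e-08), with 3.32, 3.75 and 2.43 CPM in A549R cisplatin libraries and 4.69, 3.81 and 4.68 CPM in A549R DMSO libraries. At chromosome 6, 27441149, it was 5.68 ± 0.44. Both are long-list ends. At chromosome 2, 47562431, it was 1.37 ± 0.30 (edgeR adjusted p 0.0042), and at the mitochondrial plus-strand end 0.83 ± 0.24 (edgeR adjusted p 0.0199). With shared ends fitted alone these last differences were 2.04 and 1.53, and both still passed (edgeR adjusted p 0.000924 and 0.0118).

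Among ends that fell in H358, at chromosome 5, 1038367, the difference was -4.70 ± 0.44 (edgeR adjusted p 4.32e-07), with 18.7, 15.3 and 15.4 CPM in A549R cisplatin libraries and 8.70, 13.6 and 8.43 CPM in A549R DMSO libraries. It was -4.44 at chromosome 19, 49133812, and -3.58 at chromosome 3, 126755860. It was -2.95 at chromosome 20, 18743996, and -2.83 at chromosome 3, 67425142. It was -2.74 at chromosome 16, 81744674, where A549R itself fell by 1.52 on the log2 scale (edgeR adjusted p 0.00688), -2.68 at chromosome 5, 159399624, and -2.67 at chromosome 8, 23154686. The smallest, -1.55 at chromosome 8, 118811599, was an end that fell by 2.53 in A549R as well. With shared ends fitted alone this last difference was -0.94 (edgeR adjusted p 0.255) and that at chromosome 3, 67425142, was -2.23 (edgeR adjusted p 0.127), so that neither passed, while the 7 other falls had differences of -4.10 to -2.06 there and all passed.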

How the results depend on the processing

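Called ends numbered 10146. They numbered 9933 with RLE size factors (4602 higher, 5331 lower), 10088 scaled by total count, 8601 with DESeq2 (3575 higher, 5026 lower), 11027 with a replicate block, 8441 with listing in 3 of 6 libraries, 12795 with no filter (4292 higher, 8503 lower), 8259 with a mean count of at least 20, 10109 with merging within 50 bases and 12176 scaled on shared ends, but 3901 with shared ends fitted alone. Leaving out each library gave 5910 to 10092. Same-numbered libraries had correlations of their deviations of 0.33, -0.09 and 0.22, so that the numbers were not taken as pairs, and the block changed the direction of none of the named rises and falls. With the block the mitochondrial minus-strand end from 1 to 488 passed the test (0.35, edgeR adjusted p 0.0467). Upstream pairs called numbered 1293, against 1707 with the replicate block, 1198 with DESeq2, 587 within 20 kb, 586 with both ends shared, and 868 to 1318 with each library left out. The A549R difference passed at 4695 ends, at 4763 with RLE size factors, at 803 with shared ends fitted alone and at 2171 to 6089 with each library left out. The difference in mitochondrial share, 7.97 percentage points, was 8.60 of tested counts and 7.59 to 8.50 with each library left out, where the exact p cannot go below 0.2.

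Ends in cisplatin lists alone numbered 1701 and, with each library left out, 1889 to 4001, with 2592 without cisplatin replicate 2 and 4001 without cisplatin replicate 3. Those in DMSO lists alone numbered 4590 and 5121 to 12020, with 9080 without cisplatin replicate 1 and 12020 without DMSO replicate 3. Leaving out a library loosens the listing rule by construction.

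Reversed signs were confined to 4 uncalled abundant ends. The chromosome 9 end at 127620003 was 0.11 without cisplatin replicate 1, without DMSO replicate 3 and with a mean count of at least 20, 0.44 on shared ends alone or on their scale, and -0.27 to 0.11 over the libraries left out. The chromosome 15 end at 69747500 was 0.11 without cisplatin replicate 3, 0.09 without DMSO replicate 2, 0.11 with a mean count of at least 20, 0.46 on shared ends, and -0.38 to 0.11 over the libraries left out. The chromosome 21 end at 9825431 was 0.019 with a mean count of at least 20 and 0.34 on shared ends, and the chromosome 1 end at 153507055 was 0.27 on shared ends. The cause was not tested. Changes of 180 of 180 alternatives of the named pairs kept direction and call. The test per gene was not run, for want of an annotation.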
